A study of Drosophila melanogaster with 2 samples.

Results

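The Nimrod family holds cell surface receptors and secreted proteins of insect blood cells, and 2 of its receptor genes, nimC4 and nimC1, gave far higher signals in Ck1alphaRNAi larvae than in control larvae, while the signal of their relative nimC2 was at background in the Ck1alphaRNAi larvae only. The secreted relative nimB3 was 3.10-fold lower, and eater and drpr, both well known uptake receptors, stayed within 1.3-fold. The family was chosen by gene symbol, as the genes whose symbol on the array begins with nimA, nimB or nimC, together with eater and drpr. The Ck1alphaRNAi and control signals of these same arrays were known when the family was chosen, so each ratio given here describes these 2 arrays and none of them is a test. The rule found 12 of 12430 named genes, measured by 13 of 18952 probe sets, and all 13 were matched to a gene of the reference annotation (RefSeq, Release 6 plus ISO1 MT).

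Both arrays were made from whole mid-third instar larvae of Drosophila melanogaster, collected at the feeding stage per the study's methods. They were labelled female and cultured for 6 days, with 20 larvae pooled for each array. The study reports that Ck1alphaRNAi larvae were hyperglycemic and averse to food, and it calls those of the microarray non-feeding. Blood sugar and feeding thus differed between the groups as well. Control larvae came from Dcg-Gal4 mothers and w1118 fathers (Dcg-Gal4 > w1118), and Ck1alphaRNAi larvae from Dcg-Gal4 mothers and UAS-Ck1alphaRNAi fathers (Dcg-Gal4 > UAS-Ck1alphaRNAi), so that both groups carried the driver. Dcg-Gal4 uses regulatory sequence of a collagen gene and drives expression in fat body as well as blood cells, the tissues in which most of the Nimrod genes are known to be expressed. Per the study's methods the Ck1alphaRNAi cultures were started 1 day before the controls. The study also describes most of its hyperglycemic flies as slightly delayed in development. The hairpin, the paternal stock, the start of the cultures and any difference in developmental stage go together between the arrays and cannot be told apart. In RNA of whole larvae fewer cells of a type and less RNA per cell cannot be told apart either.

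Nimrod proteins carry the NIM repeat, a short cysteine-rich module related to the EGF repeat, in their extracellular part. Those of the nimC type, like eater and drpr, span the membrane, and several of them bind bacteria or dying cells at the surface of plasmatocytes, the macrophages of the fly. The nimB proteins lack a membrane anchor and are secreted. Of the 12 genes, 10 lie in 1 cluster on chromosome arm 2L, whereas drpr and eater lie alone on arms 3L and 3R.

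The deposited values are MAS5 signals, intensities of a probe set on a linear scale, which the authors had scaled so that both arrays had the same trimmed mean (500.0). As background served 17 tag controls, probe sets for artificial sequences that no fly transcript matches. The brightest of them reached 53.3 with Ck1alphaRNAi RNA and 33.1 with control RNA, and their medians were 5.23 and 6.41. A fold is given as measured where both signals of a gene were above the highest tag control of their arrays, as a bound against that level where only the higher one was, and not at all where neither was. There are no replicates, since each genotype has 1 array, and hence no p-values, and the number of arrays limits the precision. The one measure of error was the spread between different probe sets of the same gene, an SD of 0.32 on the log2 scale (1.25-fold) over 403 genes with 2 or more probe sets of a geometric mean signal of at least 100, which leaves out all variation between larvae. The targeted gene itself, Ck1alpha, gave 2055 in Ck1alphaRNAi and 2665 in control larvae, a ratio of 0.771.

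**Figure D1:**
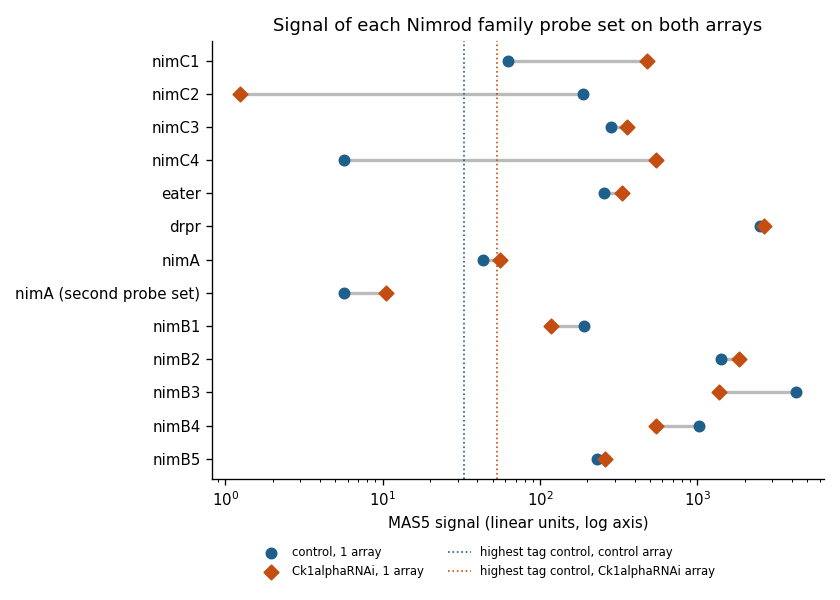
MAS5 signal of each of the 13 Nimrod family probe sets (log axis) on the control array (circles) and the Ck1alphaRNAi array (diamonds), 1 array each, with no error bars because there are no replicates. Dotted lines mark the highest tag control of each array (33.1 and 53.3). The symbols of nimC4 and nimC2 lie on opposite sides of these lines and in opposite order, and those of drpr nearly coincide.

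The nimC4 gene, also called simu, encodes a receptor by which embryonic macrophages and glia take up apoptotic cells. Its signal was 546 in Ck1alphaRNAi larvae and 5.73 in control larvae. The control value lay below the median tag control of its array, so that the transcript was at background in controls and clearly above it in Ck1alphaRNAi larvae, at least 16.5-fold higher. On the whole array 84 genes were above the tag level in Ck1alphaRNAi larvae only, and 6 of them, nimC4 counted, had a bound of this size or more.

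The nimC1 gene encodes the P1 antigen, a receptor of larval plasmatocytes that takes part in the uptake of bacteria and is a standard marker of these cells. Its signal of 477 in Ck1alphaRNAi larvae was 7.62-fold higher than that of 62.6 in controls (log2 ratio 2.93). Both signals were above the tag level, the control signal by less than 2-fold. Of 9411 genes above the tag level on both arrays, 29 had a ratio at least as high, nimC1 counted.

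The nimC2 gene, whose product is a related transmembrane protein, differed in the other direction. It gave 1.24 in Ck1alphaRNAi larvae and 187 in control larvae. The former lay below the median tag control, so the transcript was not above background in Ck1alphaRNAi larvae, and the signal was at least 3.51-fold lower there than in controls. Of 1185 genes above the tag level in control larvae only, 17 had a bound as large or larger, nimC2 counted. The tag level was 33.1 on the control and 53.3 on the Ck1alphaRNAi array, so this 1185 cannot be compared with the 84 genes given for nimC4. The fourth gene of this type, nimC3, gave 358 against 283 in controls (1.27-fold higher), close to the spread between probe sets. The 4 nimC genes had no common direction.

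The remaining membrane proteins of the family differed little. Eater, a receptor that plasmatocytes use to bind bacteria and to attach to the body wall, gave 331 against 257 in controls, 1.29-fold higher (log2 ratio 0.37). Draper (drpr), the fly relative of the nematode engulfment receptor CED-1, clears dying cells and severed axons in glia, blood cells and other tissues. Its signals of 2638 and 2490 differed by 1.06-fold, less than the spread between probe sets. The nimA gene had 2 probe sets, designed on gene models that the reference now gives as 1 gene. One gave 55.6 in Ck1alphaRNAi and 43.3 in control larvae (1.28-fold higher), both just above the tag level. The other gave 10.5 and 5.67, below it in either genotype, and gets no fold. The nimA transcript was thus barely detected in whole larvae of either genotype.

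Among the secreted members, 3 of 5 had the lower signal in Ck1alphaRNAi larvae, as had 6706 of all 12430 named genes, so nothing is read from this count. The largest difference was that of nimB3, with 1368 against 4236 in controls, 3.10-fold lower (log2 ratio -1.63). Of the genes above the tag level on both arrays, 118 had a ratio this low or lower, nimB3 counted. The nimB4 gene, whose secreted product binds apoptotic bodies and helps phagocytes to process them, gave 548 against 1031, 1.88-fold lower. For nimB1 the signals were 118 and 189, 1.60-fold lower. The other two went slightly the other way. The signal of nimB2 was 1836 in Ck1alphaRNAi and 1410 in control larvae (1.30-fold higher), and that of nimB5 260 and 231 (1.13-fold higher). The protein encoded by nimB5 is secreted by the fat body and lowers the adhesion and number of blood cells when food is scarce. The median log2 ratio of the 5 nimB genes was -0.68 and that of the 4 nimC genes 1.64, with ratios of both signs in each group.

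Counted together, 2 of 12 family genes (16.7%) were at least 2-fold higher in Ck1alphaRNAi larvae, nimC4 and nimC1, and 2 of 12 (16.7%) at least 2-fold lower, nimC2 and nimB3, with background signals raised to the tag level. Of all 12430 named genes 2.34% were 2-fold higher and 4.77% 2-fold lower by the same rule. Since the family was chosen with these ratios in view, its larger shares are given beside that background and nothing is read from them. At 1.5-fold, 2 genes were higher and 4 lower, nimB4 and nimB1 being added, against 6.15% and 11.3% of all genes. A filter on dim genes by the geometric mean of both signals, at least 100, kept 9 family genes. It dropped nimA and also nimC2 and nimC4, whose geometric means are pulled down by the signal at background, so that the difference itself decided their loss. Of the 9 genes 1 was higher and 1 lower, where 2.46% and 5.41% of all 8461 genes kept were. By the arithmetic mean nimC4 was kept as well, and of 10 family genes 2 were higher and 1 lower, against 2.6% and 5.74% of 8531 genes. Over the 12 family genes the median log2 ratio was 0.26, beside -0.04 for all named genes. The ratios of 2 family genes, drpr and nimB5, lay inside the SD between probe sets.

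**Figure D2:**
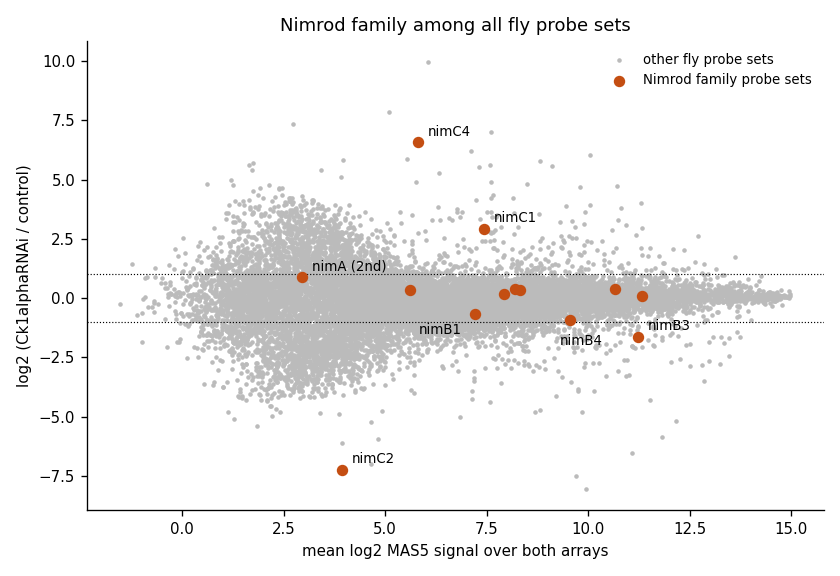
Log2 ratio of Ck1alphaRNAi over control signal (y axis) against the mean log2 signal of both arrays (x axis) for all fly probe sets (grey, 1 point each) and the 13 Nimrod family probe sets (orange, labelled where the log2 ratio is beyond 0.6 in size). Dotted lines mark 2-fold. The plotted quotients of nimC4 (6.57) and nimC2 (-7.23) each rest on 1 signal at background, so their exact place carries no weight, and they lie in the dim part of the plot where ratios scatter most.

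The signs of neighbouring genes in the cluster varied. In the order of the reference annotation the cluster runs from nimA through nimB1 to nimB5, nimC1, nimC2 and nimC3 to nimC4, and 13 other genes or RNAs lie among them or overlap them, 7 of which were measured. Of these, He was the only one at least 2-fold different. Its product Hemese is a surface glycoprotein of blood cells, and it gave 2988 in Ck1alphaRNAi larvae against 558 in controls, 5.35-fold higher. The He gene sits between nimB5 and nimC1, so that the only adjacent pair of measured genes in the cluster that were both 2-fold higher was He and nimC1. On its other side nimC1 is followed by the cytochrome P450 gene Cyp28a5, at 3681 against 4327, and then by nimC2. The gene nAChRalpha5, which encodes an acetylcholine receptor subunit and within whose span nimC4 lies, gave 81.6 against 100.3. This difference was 1.23-fold, and the spread between probe sets, taken over brighter signals, is no measure of its error. The acyl-CoA synthetase gene bgm (3104 against 3181) and CG18095 (130.0 against 153) also lay within 1.3-fold, and the median log2 ratio of the 7 genes was -0.23. The gene rk, which encodes the bursicon receptor and overlaps the end of nimC2, was below the tag level on both arrays, at 16.5 and 1.21, and so was the RNA CR31840, at 1.66 and 12.4. These 2 are named because of their places in the plot of the cluster, after their values were seen. The annotated ends of nimB1 and nimB2, of nimB5 and He, and of nimC3 and an antisense RNA overlap as well, and where the probes lie in these transcripts was not analysed here.

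**Figure D3:**
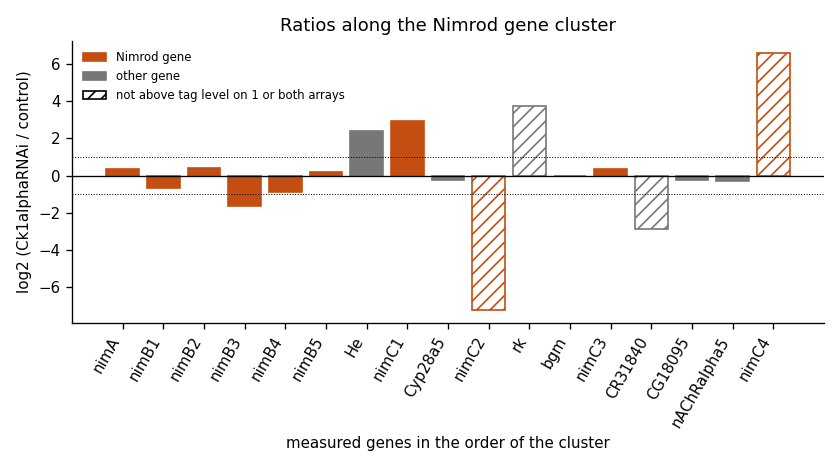
Log2 ratio of Ck1alphaRNAi over control for the measured genes of the Nimrod cluster, in their order along the chromosome but not to distance (orange, Nimrod genes, grey, other genes, 1 array per group). Hatched bars rest on a signal at background on 1 or both arrays, and dotted lines mark 2-fold. He (2.42) and nimC1 (2.93) stand side by side, and nimC2 (-7.23) and nimC4 (6.57) have neighbours near 0 or at background.

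Among other genes listed for uptake, those at least 2-fold different were 5 genes listed as uptake receptors and a thioester protein gene. That each of them acts together with a Nimrod receptor was not examined. Binding of a target by Draper starts a kinase cascade through Shark and the adaptor ced-6 to the actin cytoskeleton, and thioester proteins (Tep) can act as opsonins in the blood. Of 46 genes listed and measured for uptake, signalling and phagosome maturation, 6 (13.0%) were higher by 2-fold or more and 0 lower, beside 2.34% and 4.77% of all named genes. The list's median log2 ratio was 0.16, beside -0.04 for all named genes, and the Ck1alphaRNAi signal was the higher one for 35 of the 46 (76.1%) and for 5724 of all 12430 genes (46.0%). The list was chosen with earlier results of these data known, so nothing is read from its shares. A wider set, 205 other genes annotated with phagocytosis or engulfment, had the higher Ck1alphaRNAi signal in 44.9%. Of that set 1.46% were 2-fold higher and 2.44% 2-fold lower.

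The signalling genes of Draper and the genes of phagosome maturation held none of the 6. Over the 11 signalling genes the median log2 ratio was 0.19, with Shark at 556 against 417 and ced-6, the one gene of the group with the lower signal, at 2087 against 2592. The 8 phagosome genes had a median of -0.02 and all lay between -0.19 and 0.40. Of 5 measured genes for Draper ligands and other marks of dying cells none was 2-fold different, with prtp, a ligand of Draper, at 3331 against 5149. That gene was named after its value was seen.

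For 12 other uptake receptors the median log2 ratio was 0.54, and 5 of them reached a 2-fold higher level. The scavenger receptor gene Sr-CI gave 1682 against 456 in controls (3.69-fold higher), and its relative Sr-CIV gave 500.0 and 194 (2.57-fold higher). For Sr-CIII, at 89.6 and 31.2, the control signal was at background, and it was at least 2.71-fold higher. Itgbn, the integrin beta-nu subunit that serves in the uptake of apoptotic cells and bacteria, gave 574 and 138, 4.16-fold higher. The largest difference in this list was that of the integrin alpha subunit gene ItgaPS4, at 1332 against 27.2, at least 40.3-fold higher. This gene is also used as a marker of lamellocytes and is counted in both lists, and its role in uptake was not examined here. The remaining 7 receptor genes were within 2-fold, among them the CD36-like receptor gene crq, at 1272 against 1232. Of the 5 thioester protein genes only Tep1 was 2-fold different, at 479 against 88.7 (5.40-fold higher).

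**Figure D4:**
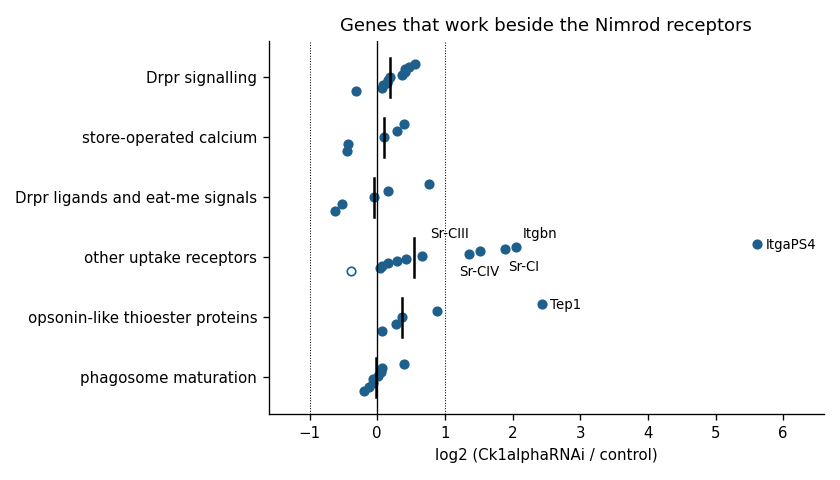
Log2 ratio of Ck1alphaRNAi over control for the 46 measured genes listed for uptake, signalling and phagosome maturation, by role (1 point per gene, open where the gene was not above the tag level on either array, vertical bars at the median of each role, dotted lines at 2-fold). The 6 labelled genes are those at least 2-fold higher, 5 of them among the uptake receptors.

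Because most Nimrod genes are expressed in blood cells, markers of these cells stand beside the family. Plasmatocyte markers differed in no common direction. Of 11 such genes 10 were above the tag level on at least 1 array, and 2 of them, He and Sr-CI, were 2-fold higher or more, while 0 were lower by as much. Of all named genes 2.34% were 2-fold higher and 4.77% 2-fold lower. All marker lists were chosen with earlier results of these data known, so nothing is read from their counts. He, given above as a gene of blood cells, does not mark plasmatocytes alone. The median log2 ratio was 0.05, and it turned to -0.07 without probe sets open to cross-hybridization. Their summed signal was 10377 in Ck1alphaRNAi and 7264 in control larvae, but He and Sr-CI carried this excess, and the other 9 genes, a split made after the values were seen, summed to 5707 and 6250. Lower in Ck1alphaRNAi larvae were the peroxidasin gene Pxn (609 against 1001), the receptor gene Pvr (657 against 850), and the transcription factor genes ush (250.3 against 320) and srp (1224 against 1417), each by less than 2-fold. Hml, the clotting protein by which plasmatocytes are most often recognised, gave 1468 and 1267, and the growth factor gene Pvf2 213 and 122. The defining transcription factor of embryonic plasmatocytes, gcm, gave 11.7 and 39.0, the first at background, and gcm2 was at background on both arrays. None of 4 crystal cell markers reached 2-fold, and their median log2 ratio was -0.01. The prophenoloxidase genes PPO1 and PPO2 gave 1348 against 1353 and 2684 against 3039, and the transcription factor genes peb and lz 569 against 538 and 38.2 against 38.8, the Ck1alphaRNAi signal of lz being at background.

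Of 6 lamellocyte markers 3 were at least 2-fold higher in Ck1alphaRNAi larvae and 0 lower, beside 2.34% and 4.77% of all named genes. Lamellocytes are large flat blood cells that encapsulate parasites and are scarce in healthy larvae. The median log2 ratio of the 6 was 1.72, beside -0.04 for all named genes, and their summed signals were 22551 and 12007. In RNA of whole larvae these sums include any other tissue that expresses the 6 genes. PPO3, a prophenoloxidase gene of lamellocytes, gave 297 against 10.1 (at least 8.97-fold higher), and betaTub60D 5780 against 919.9 (6.28-fold higher), with ItgaPS4, given among the uptake receptors, as the other. Below 2-fold were atilla, at 6182 against 3597, the integrin beta gene mys, at 2262 against 1747 (1.29-fold), and the filamin gene cher, at 6698 against 5706 (1.17-fold, less than the spread between probe sets). Another probe set of mys gave 1629 against 1043 (1.56-fold).

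Fat body markers were split, with 4 of 6 at least 2-fold lower, beside 4.77% of all named genes, and 2 slightly higher. Their summed signals were 20624 in Ck1alphaRNAi and 87670 in control larvae. The lower ones were the storage protein genes Lsp2 (475 against 27757) and Lsp1beta (761 against 27882), Fbp1, the receptor for such proteins (88.1 against 2290), and the lipid carrier gene apolpp (7994 against 21504). Higher by 1.37-fold each were the collagen IV genes Col4a1 (6061 against 4408) and vkg (5246 against 3830), which blood cells express too. Of 6 glial markers, of interest because glia express drpr and nimC4, only the glutamate transporter gene Eaat1 was 2-fold different, at 1115 against 3127, while nrv2 gave 1283 and 1113, moody 792 and 716, and the defining factor repo 196 and 211. The early glial factor gcm is also on the plasmatocyte list and is given there. The part of developmental stage in the differences of the fat body markers and of the Nimrod genes was not tested. Nor was the part of blood cell, fat body and glial makeup in the differences of the Nimrod genes.

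**Figure D5:**
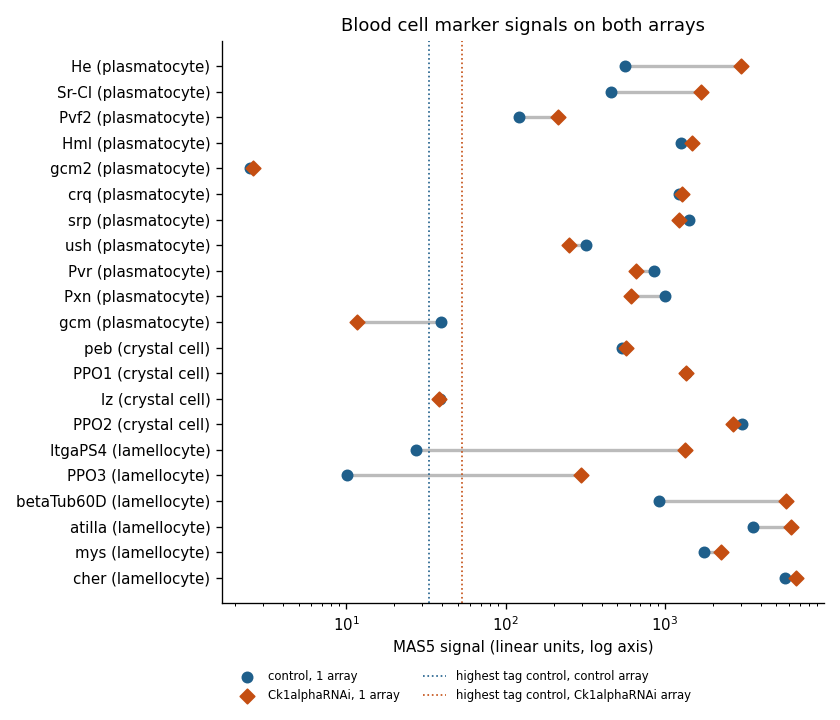
MAS5 signals (log axis) of plasmatocyte, crystal cell and lamellocyte markers on the control array (circles) and the Ck1alphaRNAi array (diamonds), 1 array each, with the highest tag control of each array as dotted lines. ItgaPS4 (27.2 to 1332) and PPO3 (10.1 to 297) cross from background to well above it, as nimC4 does, while Hml and PPO1 change little.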

How the data were processed

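RNA of 20 pooled whole larvae per genotype was hybridized to Affymetrix Drosophila 2 arrays, 1 per group. For every probe set the authors deposited an intensity, the MAS5 signal (MAS5, version 5, per the submitters' processing notes) and a fold change column, which equals the quotient of the signals in all 18952 probe sets and was not used. Detection calls, scanner files and a genome build were not used here, and no coordinates or sequences are printed.

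The log2 ratio is that of the Ck1alphaRNAi to the control signal, with no rescaling and no pseudocount. Probe sets were named through the authors' symbols and the reference table, and each gene is represented by its probe set with the highest mean signal. No test was made. Family members and gene lists were chosen with earlier results of these data known. All family probe sets are named, and of each list the genes of largest absolute log2 ratio (6 per partner or cluster list, 4 per marker list) with defining genes. Others named are crq, prtp, rk, CR31840 and the remaining plasmatocyte, lamellocyte and fat body markers, after their values were seen. Alternatives were loess, quantile normalization, median centring, a pseudocount of 16, the second deposited table, another background level, the median over probe sets, other filters and 1.5-fold. Software was Python 3.11.15 with pandas 2.3.3, numpy 2.4.6, statsmodels 0.14.6, scipy 1.17.1 and matplotlib 3.10.9.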

Additional observations from a re-analysis of the deposited data

How the results depend on the processing

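All 13 family probe sets kept the sign of their log2 ratio under loess, quantile normalization, median centring, a pseudocount of 16 and the second deposited table. The counts of family genes at least 2-fold higher and lower stayed at 2 and 2 under these and under the other background level and probe set rules. They became 1 and 1 with a geometric mean signal of at least 100, which dropped nimC4 and nimC2 through their signals at background. With an arithmetic mean of at least 100, a filter chosen after seeing the data, they were 2 and 1. At 1.5-fold 4 genes were lower. The size of the 2 one-sided differences rests on the background level. With the median tag control the bound was 85.2-fold for nimC4 and 35.8-fold for nimC2. With the pseudocount their log2 ratios were 4.69 and -3.56, the bound of nimC4 was 11.5-fold, and the second nimA probe set had a log2 ratio of 0.29. For nimC1 the log2 ratio lay between 2.65 and 3.07, and for nimB3 between -1.67 and -1.59. No paired analysis was possible because each group has 1 array. Signals near the tag level, those of nimA above all, limit what can be measured.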

Other observations

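The authors' annotated table assigns phagocytosis or engulfment to 212 named genes, and 7 of these are Nimrod family genes, nimA, the 4 nimC genes, eater and drpr. None of the 5 nimB genes carries such an entry. Without the 7, 205 genes were left, of which 3 (1.46%) reached 2-fold higher and 5 (2.44%) reached 2-fold lower in Ck1alphaRNAi larvae, beside 2.34% and 4.77% of all named genes. The median log2 ratio of the 205 was -0.03. The 3 higher genes were Sr-CI, Itgbn and the actin gene Act88F, at 70.4 against 1.65, at least 2.13-fold higher. The 5 lower genes were Pxd (202 against 529), the plasmatocyte matrix gene Tig (353 against 887), the phenylalanine hydroxylase gene Hn (1226 against 2920), CG4615 (322 against 724) and CG5790 (70.2 against 158). This set of genes was defined, and its members were named, after the values had been seen.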
